A study of Mus musculus with 24 samples.

Results

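Growth hormone release is set in the hypothalamus by a small group of peptides and receptors, and 6 of their genes were followed across the arrays: the peptide genes Ghrh and Sst and the receptor genes Ghsr, Sstr1, Sstr2 and Sstr3. They were chosen by name, with earlier results of these data known. They belong to the 19937 genes that the platform annotation ties to a single symbol, and each was measured by 1 probe set. The mice were males of BPH/2J, bred for high blood pressure, and of BPN/3J, its normotensive counterpart. Each was taken at 6 and at 26 weeks of age, which makes 4 groups of 6 mice, 1 mouse to an array (24 arrays). The whole hypothalamus was taken when blood pressure peaks in its daily cycle, and no group received a treatment beyond standard housing. Whole tissue limits the groups as a model of any one cell type: fewer cells of a type and less RNA per cell cannot be told apart in these values.

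Neurons of the arcuate nucleus release growth hormone releasing hormone, the product of Ghrh, into the portal blood, where it drives growth hormone secretion from the pituitary. Somatostatin, the product of Sst, comes largely from periventricular neurons and opposes it, acting through inhibitory receptors that include those made from Sstr1, Sstr2 and Sstr3. Ghrelin acts through the receptor made from Ghsr, which is found on Ghrh neurons and on other arcuate neurons, and growth hormone and insulin-like growth factor feed back on both peptides.

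The promoters of 3 members are shown because they carry the classic elements of these peptide systems. RefSeq windows on GRCm38.p6 were found for 5 of the 6 members, and Sstr1 was not matched. The 100 bases before the start of Sst (chr16:23890845-23890944, minus strand) and of Sstr2 (chr11:113619227-113619326, plus strand) each hold the cAMP response element TGACGTCA, in capitals.
Sst: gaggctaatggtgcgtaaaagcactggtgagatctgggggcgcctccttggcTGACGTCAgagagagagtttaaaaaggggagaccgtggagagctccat
Sstr2: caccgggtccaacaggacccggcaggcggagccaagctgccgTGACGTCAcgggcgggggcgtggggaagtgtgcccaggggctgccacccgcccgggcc
In Sst the element lies 48 to 41 bases before the start, and in Sstr2 58 to 51 bases before it. The 250 bases before one of the 2 annotated starts of Ghrh (chr2:157337427-157337676, minus strand) hold a TATAAA box and a pair of TAATTA cores, the letters that many homeodomain factors recognise, again in capitals.
Ghrh: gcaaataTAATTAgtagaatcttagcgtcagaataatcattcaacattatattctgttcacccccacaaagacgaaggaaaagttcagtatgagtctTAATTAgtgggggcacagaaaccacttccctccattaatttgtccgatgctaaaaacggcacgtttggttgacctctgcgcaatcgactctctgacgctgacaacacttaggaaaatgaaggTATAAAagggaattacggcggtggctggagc
The box lies 31 to 26 bases before that start, and the cores begin 243 and 153 bases before it. The 3 motifs were searched on both strands, where TGACGTCA and TAATTA read the same, and none of the matches overlap. Of 32851 promoter windows of 250 bases, 1.55% hold TGACGTCA, 12.4% TATAAA and 4.84% TAATTA. Of the 7 windows of members, 2 hold TGACGTCA, 1 TATAAA and 1 TAATTA. The windows of Ghsr and Sstr3 and of the other Ghrh start hold none of them. A match is a description of the letters in the window, and no binding was measured here.

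All 6 members gave a signal above the median of the unnamed probe sets on 24 of 24 arrays, a level that ran from 4.60 to 5.25 between arrays. The smallest gap above it was 1.11 log2 units, for Sstr3. Values are log2 values made with RMA, and levels are compared only within a gene. The 17 markers of the hypothalamus, and 8 measured markers of its arcuate nucleus, had means above that level too. Groups and arrays differed in other regions' markers. At 6 weeks 15 of 16 thalamus markers were lower in BPH/2J, and the mean of the 16 ran from 7.30 to 8.98 in BPH/2J against 8.92 to 9.27 in BPN/3J. Replicate 2 of BPH/2J at 6 weeks stood apart from its group, with a thalamus mean of 8.98 where the other 5 lay between 7.30 and 8.35. Its hypothalamus mean was 7.79, where BPN/3J spanned 7.23 to 7.86 and the other 5 BPH/2J arrays 8.19 to 8.49. At 26 weeks replicates 5 and 6 of both strains stood apart from replicates 1 to 4 on the first component of the deviations from group means, which held 41.9% of the variance. No label names these sets, and they were found after the data were seen.

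**Figure D1:**
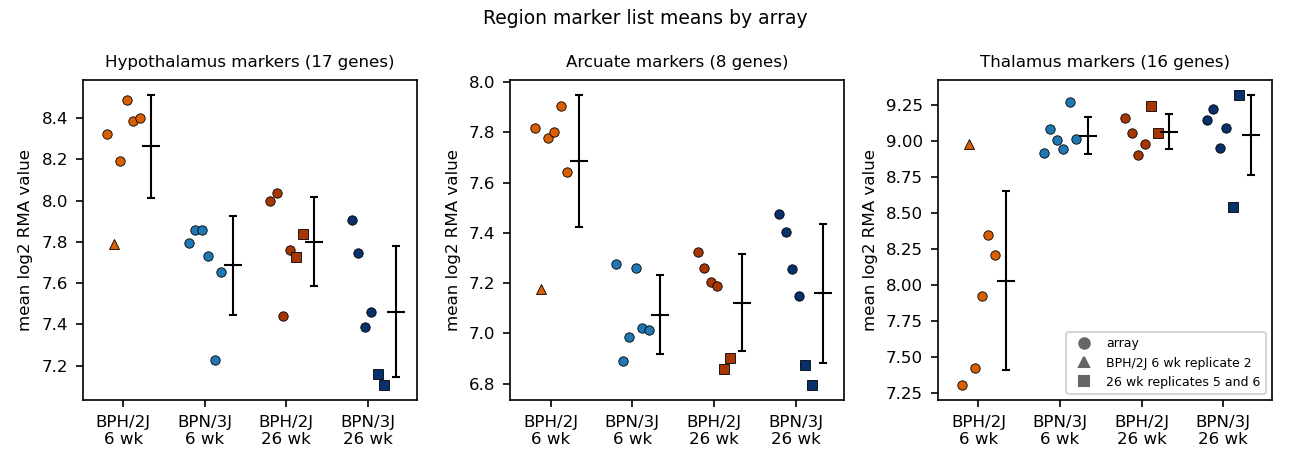
Means of 3 region marker lists on each array (vertical axis, mean log2 RMA value) for the 4 groups, with group mean and SD beside the points (n = 6). The triangle is BPH/2J replicate 2 at 6 weeks, which lies at 8.98 in the thalamus panel, among the BPN/3J arrays at 8.92 to 9.27, and the squares are replicates 5 and 6 at 26 weeks.

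The first comparison was of BPH/2J with BPN/3J in young mice. In BPH/2J at 6 weeks both peptide genes and 1 receptor gene were higher: Ghrh by 1.68-fold, Sst by 1.60-fold and Sstr1 by 1.38-fold. Sstr2, Ghsr and Sstr3 did not pass the test. That made 3 of 6 members called, all higher, at an adjusted p below 0.05 over all genes in limma, against 7.42% of all genes called in either direction and 2.99% called higher. The median difference over the 6 members was 0.36 log2 units, and over all genes it was 0.01.

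Ghrh ran from 6.76 to 7.82 in BPH/2J at 6 weeks, with a median of 7.46. In BPN/3J it ran from 6.30 to 7.06, with a median of 6.66. The difference was 0.75 ± 0.15 log2 units (SE, n = 6 per group, adjusted p = 0.00225). In 5 of 6 BPH/2J arrays Ghrh was above every BPN/3J array, and replicate 2, at 6.76, was the one inside the BPN/3J range.

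Sst, the gene of the inhibitory peptide, ran from 10.14 to 10.86 in BPH/2J (median 10.69). In BPN/3J it ran from 9.55 to 10.24 (median 9.95). The difference was 0.68 ± 0.20 log2 units (SE, n = 6 per group), with an adjusted p of 0.0365. Again 5 of 6 BPH/2J arrays were above all of BPN/3J and the lowest was replicate 2, at 10.14. This call was the less secure of the pair. It was lost in each of 9 fits that left out 1 array, namely replicate 1, 3, 4, 5 or 6 of BPH/2J or replicate 1, 2, 4 or 5 of BPN/3J, where the difference was 0.60 to 0.70 and the adjusted p 0.0513 to 0.108.

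Among the receptors, Sstr1, an inhibitory somatostatin receptor found on neurons of the hypothalamus, ran from 7.75 to 8.25 in BPH/2J (median 8.10). In BPN/3J it ran from 7.31 to 7.78 (median 7.63), which gave a difference of 0.46 ± 0.11 log2 units (SE, n = 6 per group, adjusted p = 0.00631). Replicate 2 was once more the lowest BPH/2J array and the only one inside the BPN/3J range. Sstr2, which carries much of somatostatin's action on growth hormone cells, ran from 7.34 to 7.66 in BPH/2J and from 7.15 to 7.39 in BPN/3J (medians 7.48 and 7.19). Its difference of 0.26 ± 0.10 (adjusted p = 0.138) did not pass, although 5 of 6 BPH/2J arrays were above all of BPN/3J. It passed with only the 6-week groups in the fit (adjusted p = 0.0129), and without replicate 6 of BPN/3J at 26 weeks (0.0395).

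Ghsr and Sstr3 overlapped broadly between the strains. Ghsr, the ghrelin receptor, ran from 7.03 to 7.61 in BPH/2J and from 7.14 to 7.44 in BPN/3J, a difference of 0.12 ± 0.10 with a 95% interval of -0.08 to 0.32. Sstr3, a somatostatin receptor known from neuronal cilia, ran from 6.29 to 6.69 and from 6.40 to 6.59, a difference of 0.01 ± 0.08 with an interval of -0.16 to 0.18.

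**Figure D2:**
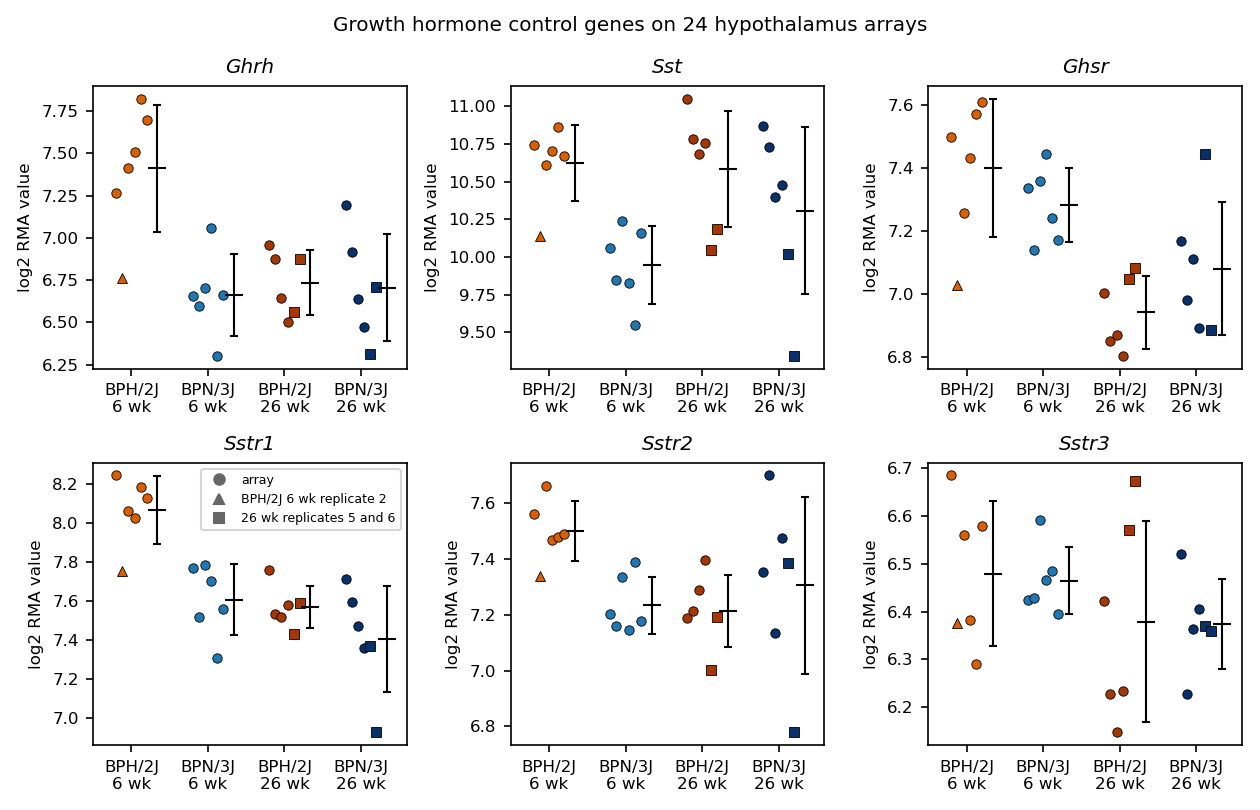
Log2 RMA values (vertical axis) of the 6 genes on 24 arrays, by strain and age, with group mean and SD (n = 6). The triangle is BPH/2J replicate 2 at 6 weeks, the lowest of its group for every gene but Sstr3, and the squares are replicates 5 and 6 of the 26-week groups, which hold the lowest Sst values at that age.

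Replicate 2 of BPH/2J was the lowest array of its group for 5 of the 6 members and the second lowest for Sstr3. Without it the strains no longer overlapped for Ghrh, Sst, Sstr1 or Sstr2, with differences of 0.88, 0.77, 0.52 and 0.30. It was the lowest BPH/2J array for each of these, so leaving it out could only lessen their overlap with the lower BPN/3J values. The share of all genes that no longer overlapped was not counted. In the fit without it 3 of 6 members were called as before, against 9.84% of all genes. The region markers moved with the same comparison. Besides the thalamus markers above, 9 of 17 hypothalamus markers and 5 of 8 measured arcuate markers were called higher in BPH/2J, and 0 of either list lower. Of 11 measured oligodendrocyte markers 5 were lower, and of 9 measured pituitary markers 0 were called. The hypothalamus mean was 7.79 to 8.49 in BPH/2J against 7.23 to 7.86, and the arcuate mean 7.18 to 7.90 against 6.89 to 7.28. With the thalamus mean as a covariate 0 of 6 members were called, Ghrh at 0.68 ± 0.23 (adjusted p = 0.282), Sst at 0.41 and Sstr1 at 0.24, and 171 genes were called in all. With the hypothalamus mean as a covariate, a fit added after the data were seen, the 3 differences were 0.26, 0.06 and 0.13, again with 0 members called and 302 genes called in all. The thalamus mean averaged 8.03 in young BPH/2J and 9.04 to 9.07 in the other groups, so that covariate goes largely with young BPH/2J. The median SE over all genes was 0.133 with it, 0.118 with the hypothalamus mean and 0.090 without either. A call lost in these fits therefore cannot separate strain from region markers.

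Markers of Sst interneurons, which also make somatostatin in cortex, hippocampus and striatum, were read because such tissue could carry Sst into a dissection. Of 9, 3 were higher in BPH/2J at 6 weeks (Npy, Chodl and Nos1) and 0 lower, with a mean of 8.11 to 8.33 against 7.90 to 8.08. Over all genes 7.42% were called in either direction and 2.99% higher. Of the 9 differences 7 were above 0 and 2 below, with a median of 0.12. Of 11 measured cortex and hippocampus markers, 1 was higher and 2 lower. Of 6 striatum markers 0 were called. The share of Sst that comes from such cells was not tested. Npy is also an arcuate marker and was counted in both lists.

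The second comparison set the strains against each other in adult mice. At 26 weeks 0 of 6 members were called, against 2.67% of all genes. At an unadjusted p below 0.05 in limma the count was also 0, beside 2488 of 19937 genes. Ghrh ran from 6.50 to 6.96 in BPH/2J and from 6.31 to 7.19 in BPN/3J (medians 6.76 and 6.67). Its difference was 0.03 ± 0.15, with a 95% interval of -0.29 to 0.34 that leaves out the 6-week estimate of 0.75. That estimate has its own error, and the limma test of the change with age did not pass for Ghrh (adjusted p = 0.148). Sst ran from 10.05 to 11.05 and from 9.34 to 10.87 (medians 10.72 and 10.44), a difference of 0.28 ± 0.20 with an interval of -0.13 to 0.69. The 26-week Sst groups overlapped widely, and the interval takes in both 0 and the 6-week value.

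The 4 receptor genes at 26 weeks lay between a difference of -0.14 ± 0.10 for Ghsr and 0.16 ± 0.11 for Sstr1. Ghsr ran from 6.80 to 7.08 in BPH/2J and from 6.89 to 7.44 in BPN/3J. Sstr1 ran from 7.43 to 7.76 and from 6.93 to 7.71, Sstr2 had medians of 7.20 and 7.37, and Sstr3 ran from 6.15 to 6.67 and from 6.23 to 6.52. Every receptor gene overlapped between the strains.

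Within the 26-week groups Sst followed the array sets. In BPH/2J replicates 5 and 6 were at 10.05 and 10.19, and replicates 1 to 4 at 10.68 to 11.05. In BPN/3J they were at 10.02 and 9.34, and replicates 1 to 4 at 10.40 to 10.87. So the set of 2 was lower in both strains, by 0.70 and 0.94 log2 units in the means. The arcuate marker mean was lower in the set of 2 as well, by 0.36 and 0.49, and in each strain both arrays of the set lay below all 4 others. The choroid plexus marker mean was lower by 0.78 and 1.62. In BPH/2J that came from replicates 3 and 4, at 8.24 and 7.62, since replicates 1 and 2, at 6.32 and 6.33, lay between replicates 5 and 6, at 6.52 and 6.17. In BPN/3J replicates 5 and 6 were below all 4 others. The hypothalamus mean differed by -0.03 in BPH/2J and -0.49 in BPN/3J, and the thalamus mean by 0.13 and -0.17. The strain difference in Sst was 0.20 within replicates 1 to 4 (n = 4 per group) and 0.44 within replicates 5 and 6 (n = 2). For Ghrh the same values were -0.06 and 0.21. Ghrh differed less between the sets, by -0.03 in BPH/2J and -0.29 in BPN/3J. Single arrays among replicates 1 to 4 also had high striatum or cortex marker means. The striatum mean was 9.06 on replicate 3 of BPH/2J, where the others ran from 7.56 to 8.07. On replicate 4 of BPN/3J it was 8.13, with the others at 7.49 to 7.82. The cortex and hippocampus mean of that array was 8.15, with the others at 7.13 to 7.32. Sst on these arrays was 10.68 and 10.48. The part of choroid plexus, arcuate, striatum or cortex content in the set differences was not tested.

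A test of the difference between the ages' strain effects, the strain by age interaction, called 0 of 6 members, and it called 0.0301% of all genes (6 of 19937). At an unadjusted p below 0.05 it took in Ghrh and Sstr2 among the members, and 2160 genes in all. Ghrh had an interaction of -0.72 ± 0.22 log2 units (adjusted p = 0.148), the strain difference being the smaller in adults. Without replicate 2 of BPH/2J at 6 weeks it was -0.85 with an adjusted p of 0.0139, and with array weights -0.78 with 0.0373. Sstr2 had -0.36 ± 0.15 (adjusted p = 0.34) and Sst -0.40 ± 0.28 (0.674). So a change of the strain effect with age was not established over all genes for any member on all 24 arrays.

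**Figure D3:**
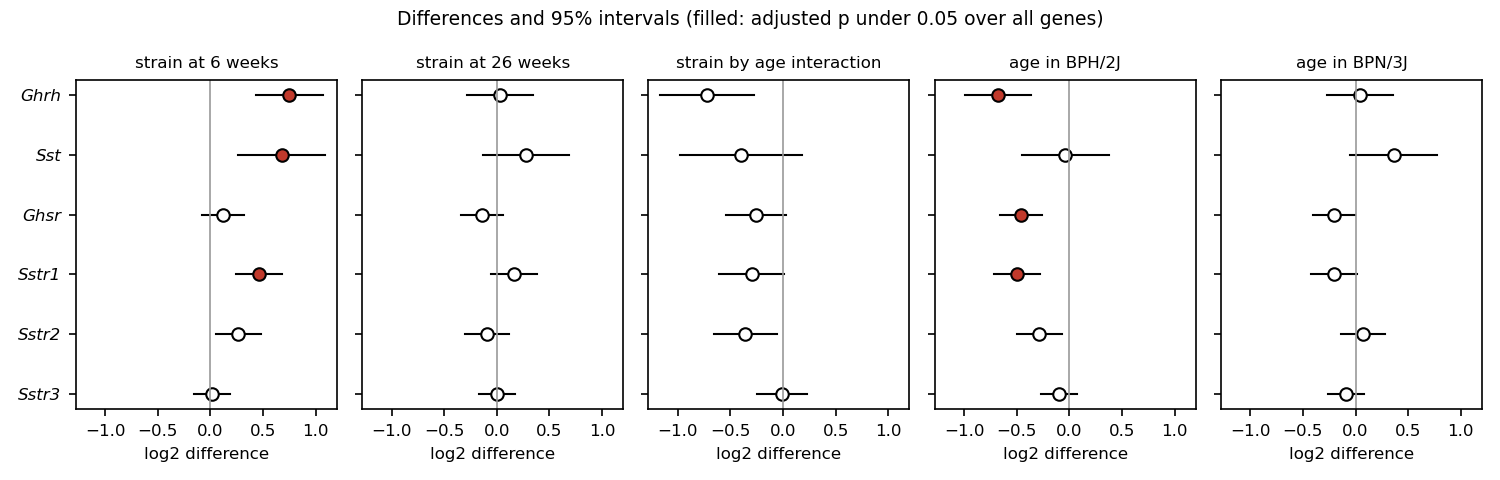
Differences in log2 units (horizontal axis) of the 6 genes in the 5 contrasts, with 95% intervals from limma, filled where the adjusted p over all genes was below 0.05 (n = 6 per group). Filled points are Ghrh, Sst and Sstr1 for strain at 6 weeks, all above 0, and Ghrh, Ghsr and Sstr1 for age in BPH/2J, all below 0.

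Between 6 and 26 weeks Ghrh, Ghsr and Sstr1 fell in BPH/2J, so that the gene for the releasing hormone and the gene for the ghrelin receptor moved the same way while Sst did not pass. Here 3 of 6 members were called, all lower, against 16.9% of all genes called in either direction and 8.64% called lower. The median over the members was -0.37 log2 units, and over all genes -0.03. The 6-week BPH/2J arrays serve in this comparison and in the first, so the results share those mice.

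Ghrh fell by 0.68 ± 0.15 log2 units in BPH/2J (SE, n = 6 per group, adjusted p = 0.00399), from the 6-week values above to 6.50 to 6.96. The ages overlapped only through replicate 2 of the 6-week group, at 6.76. Ghsr, whose strain difference did not pass at either age, fell by 0.46 ± 0.10 (adjusted p = 0.0025), from 7.03 to 7.61 (median 7.47) down to 6.80 to 7.08 (median 6.94). The same array, at 7.03, was the only 6-week Ghsr value inside the adult range. Sstr1 fell by 0.50 ± 0.11 (adjusted p = 0.00261), to 7.43 to 7.76 (median 7.56), and here too only replicate 2, at 7.75, overlapped.

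Sst had a difference of -0.04 ± 0.20 with age in BPH/2J, with medians of 10.69 and 10.72, and a 95% interval of -0.45 to 0.37. Sstr2 was at -0.29 ± 0.10 (adjusted p = 0.0566) and Sstr3 at -0.10 ± 0.08. Sstr2 passed without replicate 2 of BPH/2J at 6 weeks (-0.32, adjusted p = 0.0397), and without replicate 2 or 6 of BPN/3J at 26 weeks (0.0339 and 0.0147). Sstr3 passed with the larger 26-week array set alone (-0.22, adjusted p = 0.0269), where 5 of 6 members were called, all but Sst. That fit called 39.3% of all genes, in place of 16.9%.

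Region markers also moved with age in BPH/2J. Of 16 thalamus markers 14 were higher at 26 weeks, where their mean was 8.90 to 9.25. Of 17 hypothalamus markers 9 were lower and of 8 arcuate markers 4 were lower. The hypothalamus mean ran from 7.44 to 8.04 and the arcuate mean from 6.86 to 7.32 at 26 weeks. With the thalamus mean as a covariate 0 members and 8 genes in all were called, with Ghrh at -0.61, Ghsr at -0.25 and Sstr1 at -0.27. With the hypothalamus mean 1 member and 12.5% of all genes were called, the member being Ghsr at -0.37 (adjusted p = 0.0396), and Ghrh was at -0.29. Here too the thalamus covariate goes largely with young BPH/2J, and the median SE over all genes was 0.135 with it and 0.090 without. A call lost with it cannot separate age from thalamus markers.

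In BPN/3J 0 of 6 members were called with age, against 12.3% of all genes. At an unadjusted p below 0.05 in limma it was 1 of 6, beside 5834 of 19937 genes. That member was Ghsr, at -0.20 ± 0.10 (adjusted p = 0.168). Ghsr passed without replicate 5 of BPN/3J at 26 weeks (-0.27, adjusted p = 0.0354), the highest adult array at 7.44. Ghrh was at 0.04 ± 0.15, with a 95% interval of -0.27 to 0.36. Sst was at 0.36 ± 0.20 (adjusted p = 0.233). Without replicate 6 of BPN/3J at 26 weeks, the array at 9.34, it was 0.55 and passed (adjusted p = 0.0293). With only the larger 26-week set it was 0.67 (adjusted p = 0.000692), and with a term for the sets 0.63 (0.000872). Hence the Sst value in adult BPN/3J mice turned on which arrays were included. Some region markers moved with age in BPN/3J as well. Of 11 oligodendrocyte markers 6 were lower at 26 weeks and 0 higher. Of 9 choroid plexus markers 1 was called higher, and 8 differences were above 0, with a median of 0.48. Of 17 hypothalamus markers 1 was lower, of 8 arcuate markers 1 was higher and 1 lower, and of 16 thalamus markers 0 were called.

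In order of level, Ghrh was highest in BPH/2J at 6 weeks, with a mean of 7.41 ± 0.37 (SD, n = 6), and the other 3 groups lay close together, at 6.73 ± 0.19 in BPH/2J at 26 weeks, 6.71 ± 0.31 in BPN/3J at 26 weeks and 6.66 ± 0.24 in BPN/3J at 6 weeks. These 3 neighbours differed by less than their SDs. Sst was lowest in BPN/3J at 6 weeks (9.95 ± 0.26) and stood at 10.31 ± 0.56, 10.58 ± 0.39 and 10.62 ± 0.25 in BPN/3J at 26 weeks, BPH/2J at 26 weeks and BPH/2J at 6 weeks, which differed by less than the SD of adult BPN/3J. Ghsr was ordered by age, at 7.40 ± 0.22 and 7.28 ± 0.12 in young BPH/2J and BPN/3J and at 7.08 ± 0.21 and 6.94 ± 0.12 in adult BPN/3J and BPH/2J. Sstr1 was set apart in young BPH/2J (8.07 ± 0.17), with means of 7.61, 7.57 and 7.41 elsewhere. Sstr2 was also highest in young BPH/2J, with a mean of 7.50 against 7.21 to 7.31, and Sstr3 stayed within 6.37 to 6.48 in its group means.

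The remaining genes of the growth hormone axis were read from a list of 45, of which 43 were measured, without the 6 members. At 6 weeks 6 were higher and 2 lower in BPH/2J, 8 of 43 beside the 7.42% of all genes, with a median difference of 0.16. With the thalamus mean as a covariate, which goes largely with young BPH/2J, 1 was called, against 0.858% of all genes. The receptors and their partners held Gpr101, an orphan receptor whose duplication is linked to gigantism in people (0.96 ± 0.15 log2 units), and Ghr, the growth hormone receptor (0.44 ± 0.10). The peptide-processing enzymes held Pam, which amidates peptides (0.39 ± 0.08), and the prohormone convertase Pcsk1 (0.32 ± 0.10). Of the 10 measured transcription factors of Ghrh or Sst neurons, 2 were called, the homeodomain factors Isl1 (0.89 ± 0.22) and Bsx (0.63 ± 0.14), and all 10 differences were above 0. Otp and Sim1 of these stand in the hypothalamus marker list too.

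Lower in BPH/2J at 6 weeks were Igf1, the growth factor that growth hormone induces and that feeds back on it (-0.61 ± 0.08), and Socs2, an inhibitor of growth hormone receptor signalling (-0.41 ± 0.12). The Igf1 values did not overlap: 6.07 to 6.67 in BPH/2J (median 6.37) and 6.74 to 7.16 in BPN/3J (median 6.98). Gpr101 also did not overlap, at 8.33 to 9.03 against 7.65 to 7.99. For both genes every young BPH/2J mouse was therefore on one side of every young BPN/3J mouse, replicate 2 included. The share of all genes without overlap was not counted. Pcsk1 lost its call in 7 fits that left out a 6-week array (replicates 1, 3, 4 and 5 of BPH/2J, and 3, 5 and 6 of BPN/3J) and Socs2 in 6 (replicates 1, 3 and 4 of BPH/2J, and 1, 3 and 5 of BPN/3J), with differences down to 0.25 and up to -0.34 and adjusted p-values up to 0.132 and 0.0994. With the thalamus mean as a covariate Socs2 changed sign, to 0.08.

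Genes of the peptides' own cells were read in a list of 7 that Ghrh neurons also express. Gal, the neuropeptide galanin, was higher in BPH/2J at both ages, and its values ran from 8.06 to 8.57 against 6.50 to 7.32 at 6 weeks and from 7.23 to 7.90 against 5.98 to 7.23 at 26 weeks. So Gal, unlike Ghrh, was still called in adults. Whether the strain difference itself differs between Gal and Ghrh was not tested. Gad2, a GABA-making enzyme, was higher at 6 weeks by 0.30 ± 0.09 (adjusted p = 0.0392), a call lost in 9 fits without replicate 1, 3, 4, 5 or 6 of BPH/2J or replicate 1, 2, 4 or 5 of BPN/3J (0.26 to 0.30, adjusted p up to 0.119). That made 2 of 7 called at 6 weeks and 1 of 7 at 26 weeks, against 7.42% and 2.67% of all genes. The other 5 genes did not pass at either age. Of the 7 differences, 6 were above 0 and 1 below at 6 weeks, and 5 and 2 at 26 weeks. Th had lower means in BPH/2J, at 8.43 against 9.16 at 6 weeks and 7.97 against 8.65 at 26 weeks. It was named here after its values were seen.

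At 26 weeks 0 of 43 axis genes were called between the strains, with a median of 0.01, and 0 in the interaction. Leaving out replicate 2 of BPH/2J at 6 weeks brought 5 of them past the interaction test, with 2.49% of all genes. With age in BPH/2J 16 were lower and 1 higher, with a median of -0.23 beside -0.03 over all genes. That is 39.5% of the list, against 16.9% of all genes called in either direction and 8.64% called lower. With the thalamus mean as a covariate, which goes largely with young BPH/2J, 0 of the 43 were called, and 8 genes in all. The smallest p-values were those of Igf1 (0.67 ± 0.08, the one higher), Pam (-0.49 ± 0.08), Pcsk1 (-0.54 ± 0.10) and Gpr101 (-0.80 ± 0.15). All 10 transcription factors had differences below 0 and 6 of them were called. Of the 7 Ghrh neuron genes 2 were called lower too, Gal (-0.79 ± 0.18) and Gad2 (-0.31 ± 0.09), beside the 8.64% of all genes. The Gad2 call was lost without replicate 2 or 4 of BPH/2J at 26 weeks (adjusted p up to 0.0585). Without replicate 4 of BPH/2J at 26 weeks 11 axis genes were called in place of 17, with 10.7% of all genes.

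With age in BPN/3J 5 axis genes were lower and 0 higher, with a median of -0.07. The share called, 11.6% of the list, lay near the 12.3% of all genes, so the count says nothing particular to the axis. They were Hmx2 (-0.40 ± 0.11) and Hmx3 (-0.38 ± 0.10), homeodomain factors needed for Ghrh neurons, the ghrelin gene Ghrl (-0.32 ± 0.09) and the convertase inhibitor gene Pcsk1n (-0.59 ± 0.17). The last was Igfbp4, an insulin-like growth factor binding protein (-0.34 ± 0.11), named here after its values were seen. Hmx2, Hmx3 and Pcsk1n were also called lower in BPH/2J, at -0.35, -0.49 and -0.66. Their values in adult BPH/2J differed between the 26-week array sets. Pcsk1n was at 10.87 to 11.31 on replicates 1 to 4 and at 12.03 on both replicates 5 and 6, inside the 6-week range of 11.93 to 12.16. In adult BPN/3J it was at 10.96 to 11.20 on replicates 1 to 4, 12.08 on replicate 5, above the 6-week range of 11.80 to 11.98, and 11.45 on replicate 6. With only the larger set its differences were -0.97 in BPH/2J and -0.82 in BPN/3J. Hmx2 in adult BPH/2J was at 7.16 and 7.31 on replicates 5 and 6, inside the 6-week range of 7.07 to 7.47, and Hmx3 was at 6.67 and 6.59, where the 6-week range began at 6.61. On replicates 1 to 4 every value of both genes lay below the 6-week range, and with only the larger set the differences were -0.51 and -0.63. In BPN/3J the call of Hmx3 was lost without replicate 2 at 26 weeks (-0.35, adjusted p = 0.0508) and that of Hmx2 without replicate 2 or 4 at 26 weeks (adjusted p up to 0.0621). Ghrl lost its call without replicate 1, 2 or 4 at 26 weeks or 1, 2 or 5 at 6 weeks (up to 0.0838), and Pcsk1n without replicates 1 to 4 at 26 weeks or 1, 3 or 4 at 6 weeks (up to 0.079). These counts leaned on single arrays, as did those over all genes. Without replicate 2, 4 or 1 of BPN/3J at 26 weeks 0, 1 and 2 of the 43 were called, with 5.77%, 5.19% and 6.93% of all genes. Without its replicate 5 it was 11 of the 43 and 21.2% of all genes, and without replicate 6 of BPH/2J at 26 weeks 10 and 14.5%. Among the 6-week BPN/3J arrays, 2 were called without replicate 1, and 3 without replicate 3, 4 or 5, with 6.52%, 7.63%, 7.75% and 8.74% of all genes. With only the larger 26-week set 14 were called, 32.6% of the list beside 33.6% of all genes.

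**Figure D4:**
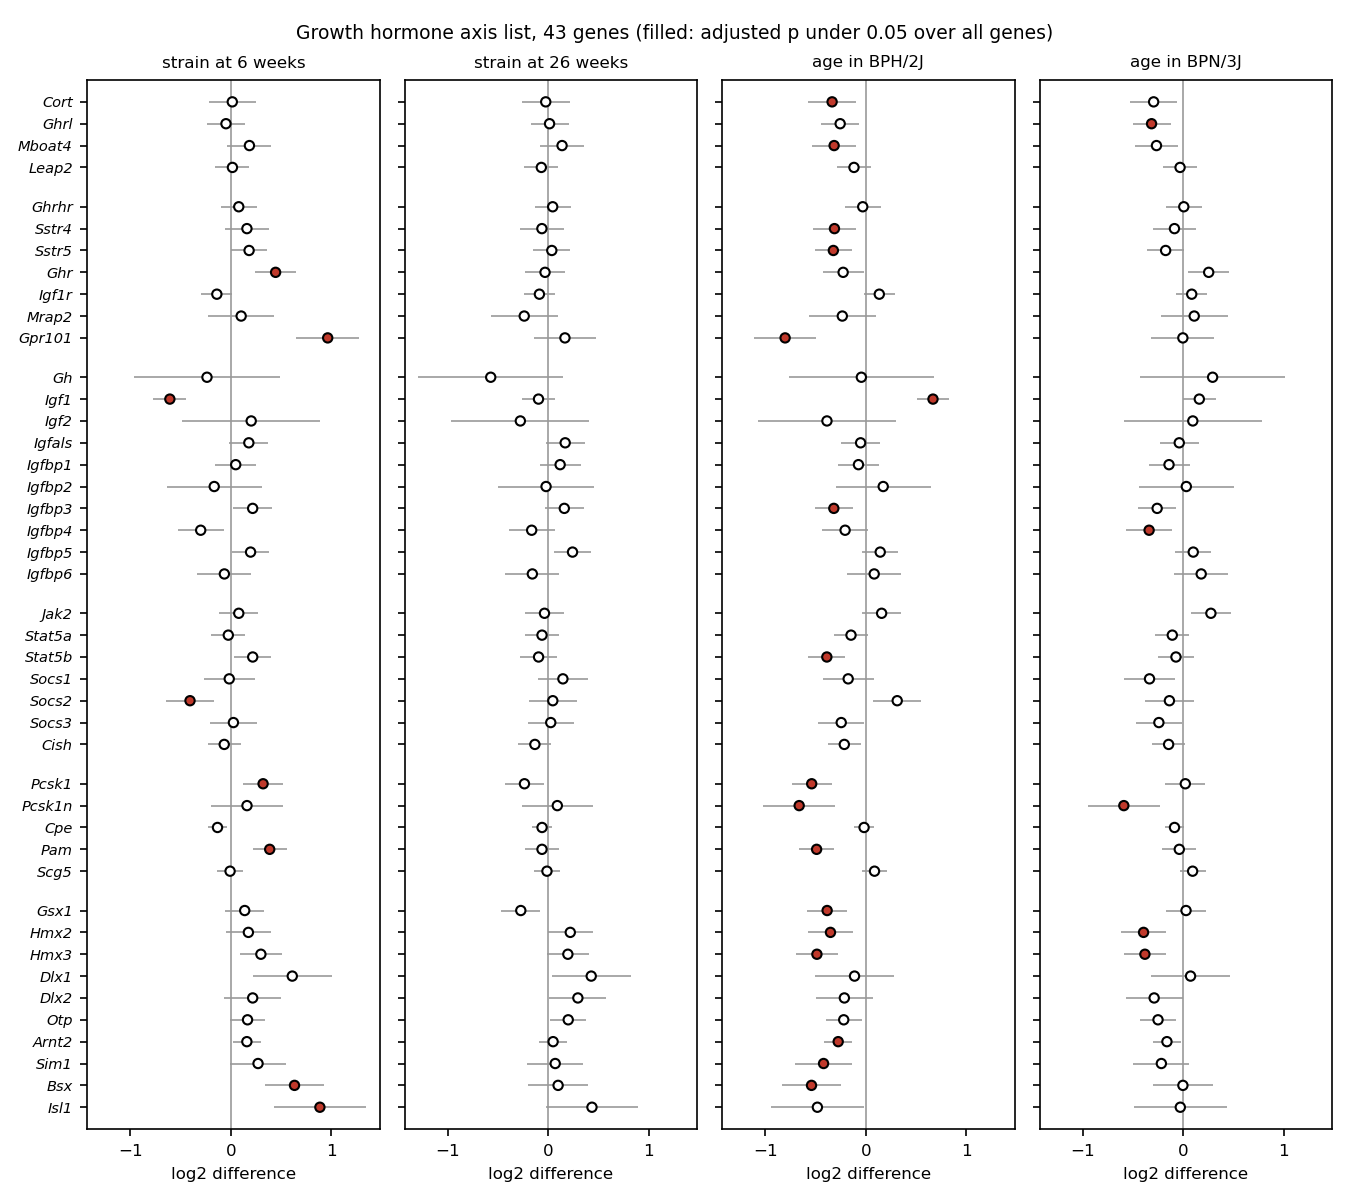
Differences in log2 units (horizontal axis) of the 43 measured genes of the growth hormone axis list, grouped by role, for strain at each age and age in each strain, with 95% intervals from limma, filled where the adjusted p over all genes was below 0.05 (n = 6 per group). The panel for strain at 26 weeks has 0 filled points, and the panel for age in BPH/2J has 17, of which 16 lie below 0.

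Members were also compared array by array, as deviations from group means. Because the 26-week sets separate in Sst, the 15 pairs were read within the 6-week arrays (n = 12) and within replicates 1 to 4 of the 26-week groups (n = 8), 30 relations in all. By Pearson's r the closest pair in each set was Sst with Sstr1, with r of 0.837 and Spearman's rho of 0.699 at 6 weeks (permutation p = 0.00364 and 0.0222, adjusted 0.0634 and 0.219). In the 26-week set r was 0.919 and rho 0.81 (permutation p = 0.0129 and 0.0444, adjusted 0.0927 and 0.222). Without the 2 arrays farthest from the median of Sst, r was 0.422 at 6 weeks and 0.721 at 26 weeks. By Spearman's rho Ghsr with Sstr1 was as close at 6 weeks, at 0.699, and Ghrh with Sst was closer in the 26-week set, at 0.857 (permutation p = 0.0219, adjusted 0.219). Ghrh with Ghsr had r of 0.809 and rho of 0.671 at 6 weeks (permutation p = 0.0055 and 0.0365, adjusted 0.0634 and 0.219), and r of 0.566 without the 2 farthest arrays. In the 26-week set the same pair had r of 0.714 and rho of 0.786 (permutation p = 0.114 and 0.0639, adjusted 0.285 and 0.274), and r of 0.336 without the 2 farthest. None of the 30 passed an adjusted p of 0.05, and replicate 2 of BPH/2J is one end of the 6-week relations. Over all 24 arrays, array sets included, Sst with Sstr1 passed among the 15 pairs (r 0.842, rho 0.716, permutation p adjusted 0.00015 and 0.0075). Ghrh with Sstr1 passed too (r 0.606, rho 0.623, permutation p adjusted 0.0395 and 0.0218). Without the 2 farthest arrays their r was 0.759 and 0.432. No other pair passed over the 24 arrays, and these tests do not separate the 26-week sets.

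**Figure D5:**
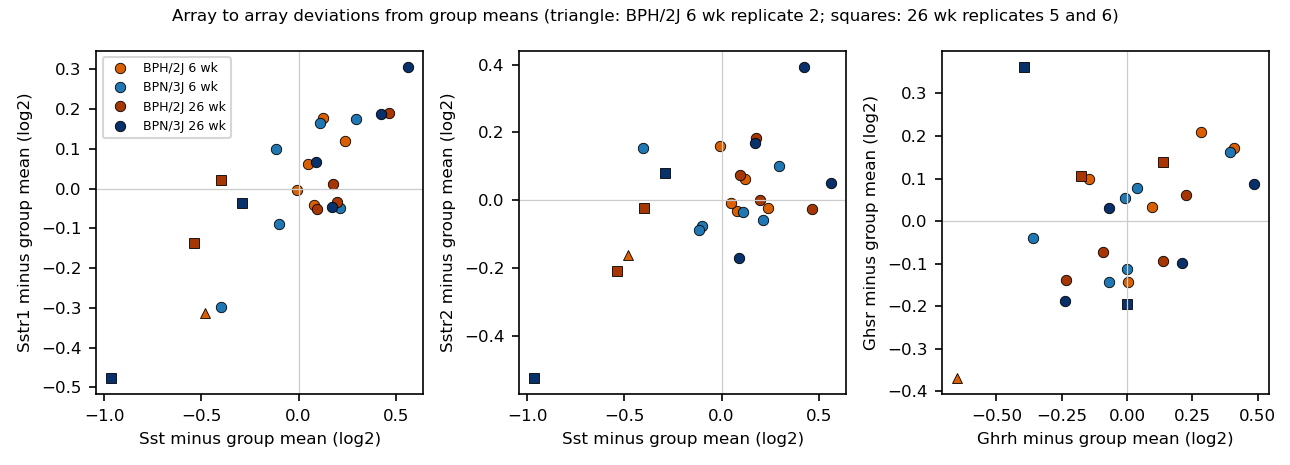
Deviations of each array from its group mean in log2 units for Sst with Sstr1, Sst with Sstr2 and Ghrh with Ghsr (24 arrays, colours mark the 4 groups). Squares are replicates 5 and 6 at 26 weeks, which lie below 0 in Sst, and the triangle is BPH/2J replicate 2 at 6 weeks, which lies at the low end of the Ghrh and Ghsr panel. The correlations in the text leave the squares out, except those given over all 24 arrays.

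Of 15738 genes measured above the unnamed probe sets, the 5 most like each peptide gene were picked by the r of their deviations from group means over all 24 arrays. That pick takes in the 26-week array sets, so the r values given are those within the 6-week arrays (n = 12) and within replicates 1 to 4 of the 26-week groups (n = 8). For Ghrh they were Shisal2a (0.81 and 0.80), the imprinted gene Peg10 (0.84 and 0.90), the imprinted hypothalamic gene Magel2 (0.85 and 0.88), the neuronal globin Ngb (0.89 and 0.87) and Dnah1 (0.76 and 0.88). For Sst they were 2010204K13Rik (0.74 and 0.95), the protein disulfide isomerase Pdia6 (0.78 and 0.66), the ubiquitin ligase Pja1 (0.70 and 0.92), Mr1 (0.86 and 0.20) and the sialyltransferase St8sia4 (0.61 and 0.68). So the r values of the genes picked for Ghrh ran from 0.76 to 0.90 in both sets, while that of Mr1 with Sst was low in the 26-week set. Both sets are among the 24 arrays used for the pick, so high r values there follow in part from it. The r with the hypothalamus marker mean was 0.76 and 0.80 for Ghrh, 0.81 and 0.83 for Sst and 0.80 and 0.71 for Sstr1. These r values are descriptions and carry no p, and the part of tissue content in them was not tested. Magel2 is itself in the hypothalamus marker list.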

How the data were processed

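Whole-hypothalamus RNA was measured on Affymetrix Mouse Gene 1.0 ST arrays. The authors deposited log2 values for 34760 probe sets. The submitters' processing notes name RMA and limma, with no version, annotation or genome build given in the sources used here. RMA normalizes between arrays, so a shift common to every gene would be reduced or lost. The deposited arrays did not share one distribution, with medians of 5.89 to 6.09. Precision is limited by the number of arrays.

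Single-symbol probe sets (21640) gave 19937 genes, the highest mean over the arrays standing for a gene, and 1321 probe sets of several symbols and 11799 unnamed ones were not tested. One limma 3.58.1 fit (R 4.3.3) with a mean per group gave 5 contrasts with Benjamini-Hochberg adjusted p-values over all genes, threshold 0.05, and code was tested on simulated data. Named were the members, axis-list and Ghrh-neuron genes called in a strain contrast or the interaction, up to 4 per age contrast by p, and the 5 genes most like each peptide gene by r over 24 arrays. Members and lists were chosen with earlier results of these data known. Groups and replicate numbers came from sample titles. Same-numbered 26-week arrays of the strains deviated together in all 6 pairs (r 0.13 to 0.444), which by the rule used pairs them, and 6-week ones in 0 of 6. At 26 weeks only 3 of 6 were closest to their own number. The 26-week array sets fall on the same numbers in both strains, and no label gives a pairing. Across ages 4 of 6 same-numbered pairs had r above 0.1 in BPH/2J and 0 of 6 in BPN/3J. Alternatives covered samples fitted, filters, scaling, array weights, covariates and left-out arrays. BPN/3J is the spelling of the sample labels, and the design text has another suffix in one place.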

Additional observations from a re-analysis of the deposited data

Results flagged for a closer look

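Sst on replicate 2 of BPH/2J at 6 weeks was 10.14, with the next array of the group at 10.61, a gap that exceeds Dixon's critical value for 6 samples. Hmx2 on replicate 6 of BPN/3J at 6 weeks was 6.95, with the next array at 7.08, which also exceeds it. The check covered 80 sets of 6 arrays from 20 genes and chance marks about 1 in 20.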

How the results depend on the processing

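Of 30 member differences, 30 kept their side of the threshold and direction with all probe sets of a gene averaged and with a replicate block, and 18 of 18 strain differences with the block within age; the block changed no member call. With a mean thalamus value as covariate the values at 6 weeks were Ghrh 0.68, Sst 0.41, Sstr1 0.24, Ghsr -0.081 and Sstr3 -0.085, with 0 members, 1 axis gene and 0.858% of all genes called; with age in BPH/2J they were Ghrh -0.61, Ghsr -0.25, Sstr1 -0.27, Sst 0.23 and Sstr3 0.0018, with 0 members, 0 axis genes and 0.0401% of all genes; the Sstr3 interaction was 0.092 and Socs2 at 6 weeks 0.084. With the hypothalamus mean, added after the data were seen, the 6-week values were Ghrh 0.26, Sst 0.061, Sstr1 0.13 and Sstr3 -0.036 (0 members, 1 axis gene, 1.51% of all genes), the 26-week values Ghrh -0.26, Sst -0.085, Sstr1 -0.032 and Sstr3 -0.025 (1 axis gene, 2.09%), the Sstr3 interaction 0.012, age in BPH/2J Ghrh -0.29, Sstr1 -0.23 and Sst 0.45 (1 member, 9 axis genes, 12.5%) and age in BPN/3J Sst 0.60 (1 member, 15.2%).

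Array weights gave Ghrh -0.019 and Sstr3 -0.083 for strain at 26 weeks, Sstr2 0.27 at 6 weeks, Ghrh -0.78 in the interaction, Sst 0.087 and Sstr2 -0.26 for age in BPH/2J, and Sst 0.55 and Ghsr -0.23 for age in BPN/3J; members called were 1 in the interaction and 2 for age in BPN/3J, and axis genes 18 at 6 weeks, 6 in the interaction and 13 for age in BPN/3J, in fits that called 18.7%, 3.43% and 32.2% of all genes. The term for the 26-week sets, added later, gave Sst 0.23 (BPH/2J) and 0.63 and Ghsr -0.25 (BPN/3J) with age, with 2 members called in BPN/3J, and 5 axis genes in the interaction and 14 for age in BPN/3J (1.26% and 36.7% of all genes). The larger set alone, also added later, gave Ghrh -0.060 and Sstr3 -0.12 at 26 weeks, Sstr2 0.26 at 6 weeks, Sst 0.20, Sstr2 -0.23 and Sstr3 -0.22 for age in BPH/2J (5 members, 39.3% of all genes) and Sst 0.67 for age in BPN/3J (1 member, 14 axis genes, 33.6% of all genes).

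With only the groups compared Sstr2 passed at 6 weeks (0.26) and with age in BPH/2J (-0.29), and 8 axis genes and 11.9% of all genes were called for age in BPN/3J. Sstr2 with age in BPH/2J also passed with genes above the unnamed median (-0.29), the array median subtracted (-0.28) and quantile normalization (-0.29); those last 2 gave Sstr3 interactions of 0.0022 and 0.0041, and quantile normalization and the block within age each called 1 axis gene in the interaction (0.171% and 0.246% of all genes). With trend and robust, Sst at 6 weeks (0.68) did not pass. The cause of these changes was not tested. Calls lost with the thalamus covariate cannot separate the groups from the markers, since its mean goes largely with young BPH/2J.

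Leaving out 1 array at a time (24 fits) gave ranges of -0.050 to 0.13 for Ghrh at 26 weeks, -0.85 to -0.62 for its interaction and -0.053 to 0.12 for its age difference in BPN/3J. Sst ran from 0.60 to 0.77 at 6 weeks, -0.14 to 0.069 with age in BPH/2J and 0.25 to 0.55 in BPN/3J, and Ghsr from -0.27 to -0.16 in BPN/3J. Sstr2 ran from 0.23 to 0.30 at 6 weeks, -0.32 to -0.24 with age in BPH/2J and -0.0084 to 0.18 in BPN/3J. Sstr3 ran from -0.027 to 0.052 at 6 weeks, -0.054 to 0.051 at 26 weeks and -0.068 to 0.037 in the interaction. Members called were 2 to 4 at 6 weeks, 0 to 1 in the interaction, 3 to 4 with age in BPH/2J and 0 to 1 in BPN/3J; axis genes 0 to 5 in the interaction, 11 to 21 with age in BPH/2J and 0 to 11 in BPN/3J, where 5.19% to 21.2% of all genes were called.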

Other observations

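Growth hormone itself, Gh, is made in the pituitary, and its probe set was uneven between arrays. In BPN/3J at 26 weeks replicates 2 and 3 were at 7.09 and 7.98 and the other 4 between 5.34 and 5.46, and in BPN/3J at 6 weeks replicate 5 was at 6.88 with the others between 5.24 and 6.06. BPH/2J stayed between 5.18 and 6.27 at both ages. Gh did not pass the test in any of the 5 contrasts. Cga, the common subunit of pituitary glycoprotein hormones, was at 6.15 and 6.09 on the same adult BPN/3J arrays and between 4.46 and 4.65 on the other 4, and in BPH/2J at 6 weeks it was at 6.90, 6.50 and 7.69 on replicates 1, 3 and 5 and between 4.06 and 4.85 on the rest. Prl, the prolactin gene of the pituitary, was between 3.83 and 4.42 on all 24 arrays, below the unnamed probe set medians. These genes were chosen after their values were seen, and pituitary carry-over was not tested.

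The receptor for growth hormone releasing hormone, Ghrhr, had group means between 6.31 and 6.38, and the 2 other somatostatin receptor genes had differences with age in BPH/2J of -0.31 ± 0.11 for Sstr4 and -0.32 ± 0.09 for Sstr5 (limma adjusted p = 0.0418 and 0.014). Sstr5 lay near the unnamed probe set level, with group means of 4.58 to 4.94. Both were named after their values were seen.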
